A study of Mus musculus with 6 samples.

Results

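The genes of glycolysis and lactate transport were followed in retinas of Lhx4 null and control mice at postnatal day 6 (P6). The set held 34 genes, chosen by name from textbook knowledge of the pathway, with earlier results of these data known. They held 2 glucose transporters and 9 genes of upper glycolysis, from hexokinase to triosephosphate isomerase. A further 6 were of lower glycolysis, from glyceraldehyde 3-phosphate dehydrogenase to pyruvate kinase, and 2 of lactate dehydrogenase. There were also 4 monocarboxylate transporters with their partner basigin, 4 of the enzymes that set fructose 2,6-bisphosphate, and 5 of the pyruvate dehydrogenase complex and its kinases. The regulator Hif1a completed the set. All 34 were found among the 21995 rows of the deposited table, and all 34 were among the 13175 rows abundant enough to be tested.

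A first group of libraries came from 3 Lhx4 null mice, which carried an Lhx4 tdTomato knock-in allele and an Lhx4 loxP allele together with Six3-Cre (Lhx4 tdT/loxP; Six3-Cre), so that the loxP allele was deleted where Six3-Cre acts, in the retina. The other group came from 3 control mice, whose genotype is labelled only as control, and no genotype is stated for the RNA-seq controls. For its electroretinograms the study used wild-type mice or mice with a loxP allele over a wild-type one as controls. All 6 mice were P6 animals of mixed background (C57BL/6J; 129S6), each library held the retinas of 1 mouse, and the retinal pigment epithelium was removed in dissection. Lhx4 is a LIM-homeodomain transcription factor of developing bipolar cells, the interneurons between photoreceptors and ganglion cells, and the study compared both genotypes to see which transcripts depend on it.

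Glycolysis splits glucose into pyruvate, and lactate dehydrogenase then turns pyruvate into lactate, which leaves the cell through monocarboxylate transporters. The retina is known for running this pathway fast even when oxygen is present, above all in photoreceptors, which take glucose from the choroid and pass lactate on to Müller glia and the pigment epithelium. Most steps can be made by more than 1 gene, and the copies differ in kinetics and in the cells that use them. The choice of copy is therefore given for each step below.

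Levels are FPKM, in which a gene's fragments are divided by transcript length and by all fragments mapped in that library, so that levels of different genes can be set side by side. The study gives the depth only as a range over its libraries. The reads behind an FPKM are not kept, and the precision rests on the spread between 3 animals. In each library the 34 genes together made up 1.33% to 1.46% of the summed FPKM in the null-labelled libraries and 1.37% to 1.59% in the controls. Cufflinks shares fragments among overlapping transcripts and no use of strand is given: 8 of the 34 genes are overlapped by another gene on their own strand and 17 by one on the opposite strand (20 by either). Several, Gapdh, Pgk1, Pgam1, Tpi1, Eno1, Aldoa and Ldha among them, also have processed pseudogenes that could take or give fragments.

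The Lhx4 row did not check the genotype labels. Its level was 28.25, 28.25 and 25.8 FPKM in the libraries labelled null, against 18.0, 18.1 and 19.3 FPKM in controls, and the groups did not overlap. The difference of 0.56 ± 0.085 (SE, n = 3 each) on the log2(FPKM + 0.5) scale was above 0 and did not pass (limma, Benjamini-Hochberg (BH) adjusted p = 0.336). A gene-level FPKM also counts fragments outside a deleted exon, and whether that applies here was not tested. Bhlhe23, a transcription factor of rod bipolar development, was named here after its values were seen. The study picked it out on these same samples, and that choice is no independent check of the labels. By in situ hybridization on P6 sections, separate from these libraries, the study also reported that Bhlhe23 signal was lost in null retinas. In the deposited table Bhlhe23 was at 0.626, 0.584 and 0.196 FPKM in the libraries labelled null, against 11.5, 7.45 and 0.986 FPKM in controls, without overlap (limma, BH-adjusted p = 0.661). The libraries are called null-labelled throughout, and each direction below rests on those labels.

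Both libraries numbered 3 stood apart from numbers 1 and 2 of their own group. In both, 9 of 9 rod markers were lower and 10 of 10 progenitor and cell cycle markers were higher than in numbers 1 and 2. Summed over 10 liver genes, a list chosen after the values were seen, their level was 123 FPKM in null-labelled 3 and 156 FPKM in control 3, against 0.265 and 0.402 FPKM in null-labelled 1 and 2 and 0 and 0.0425 FPKM in controls 1 and 2. Grm6, the metabotropic receptor through which ON bipolar cells sense glutamate, was at 7.43, 12.3 and 0.846 FPKM in null-labelled 1 to 3 and at 33.55, 11.6 and 0.0953 FPKM in controls 1 to 3. Counts over the set, its roles and the pathway lists are therefore given with and without both libraries numbered 3, and these libraries are marked by triangles in the plots of levels.

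Among the 34 genes, mean levels over all 6 libraries spanned 1.66 to 1200 FPKM. Gapdh and Ldha were among the most abundant transcripts of the whole retina: Gapdh ranked between 16 and 27 in the 6 libraries, Ldha between 19 and 39, and Pkm between 42 and 55. At the other end stood the monocarboxylate transporters Slc16a8 and Slc16a7 and the bifunctional enzyme Pfkfb1, each under 3 FPKM on average in both groups.

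**Figure D1:**
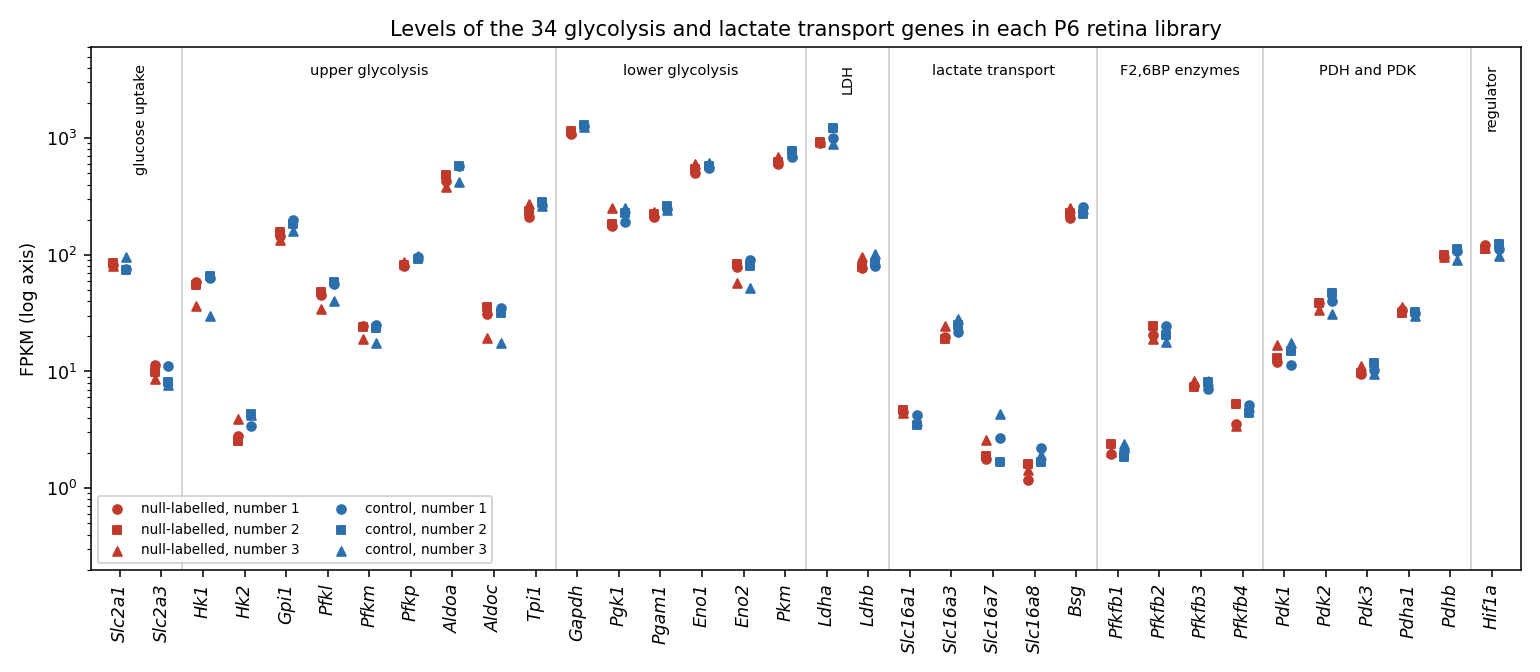
FPKM (log axis) of each of the 34 genes in the 3 null-labelled libraries (red) and the 3 controls (blue), with a marker shape for each library number. Abundance spans about the same range in both groups, with Gapdh and Ldha at the top, and the triangles of number 3 sit low in both groups for Hk1, Aldoc and Eno2.

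No gene of the set passed the test between genotypes. The fit was limma on log2(FPKM + 0.5) over all 13175 genes, with BH adjustment over all of them and a two-sided threshold of 0.05. The lowest BH-adjusted p among the 34 was 0.689 (limma), for Gpi1. Of all genes tested, 2 passed (0.0152%), and neither belonged to the set. The ratio of the null-labelled mean to the control mean lay between 0.721 (Slc16a7) and 1.19 (Slc16a1), and 0 of 34 genes reached a 1.5-fold difference of means in either direction.

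The differences were small and mostly of 1 sign. The estimate was below 0 for 24 of 34 genes (70.6%), against 49.1% of all tested genes, and the median log2 difference was −0.08 against 0.003 over all tested genes. At an unadjusted limma p under 0.05, 2 of 34 were lower in null-labelled retinas (Gpi1 and Pfkp), where 2.72% of all tested genes were, and 0 of 34 were higher, where 4.09% were. All 3 null-labelled values lay below all 3 control values for 6 of 34 genes (Gpi1, Pfkp, Gapdh, Pgam1, Pkm and Slc16a8; 5.53% of all tested genes), and above them for 1 of 34 (Slc16a1; 7.88% of all tested genes). Within same-numbered pairs, 13 of 34 (38.2%) were lower in null-labelled retinas in 3 of 3 pairs, against 16.6% of all tested genes, and 2 of 34 (5.88%; Slc2a3 and Slc16a1) were higher in 3 of 3, against 18.4%.

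A tilt of the same sign was present in abundant genes generally. Of all 590 tested genes with a mean of at least 100 FPKM, a split chosen after the values were seen, 413 (70.0%) had an estimate below 0 and the median was −0.08. In the set, 10 of 11 genes at or above 100 FPKM were below 0 (median −0.18), as were 14 of 23 under 100 FPKM (median −0.05). Without both libraries numbered 3, 452 of the 590 (76.6%) were below 0, and 29.2% of the 590 were lower at an unadjusted limma p under 0.05. FPKM is relative to the library. When the libraries were rescaled to the same total, 22 of 34 genes were below 0, and the median was −0.04 against 0.04 over all tested genes. Without overlap, 2 genes (Pfkp and Pkm) were then lower, where 3.03% of all tested genes were, and 1 higher, where 10.7% were. In RNA from whole retinas, fewer cells of a type and less RNA per cell cannot be told apart.

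The count of 2 depended on the libraries numbered 3 and on the model. Without both of them (2 against 2), 11 of 34 genes were lower at an unadjusted limma p under 0.05, where 7.0% of all tested genes were, 28 of 34 estimates were below 0 and the median was −0.17. Groups then did not overlap for 19 genes lower in null-labelled retinas, where 25.0% of all tested genes did not. With the library number as a block, 6 of 34 were lower at that level (Gpi1, Pfkl, Pfkp, Aldoa, Pkm and Slc16a3), where 5.21% of all tested genes were. In both fits 0 of 34 passed after BH adjustment (lowest limma BH-adjusted p = 0.281 without number 3 and 0.3 with the block), while 11 and 12 genes passed in the whole table. Leaving out control 1 or null-labelled 1 left 0 of 34 lower at an unadjusted p under 0.05 (limma), where 1.65% and 1.14% of all tested genes were. Leaving out control 2, control 3, null-labelled 2 or null-labelled 3 left 1, 3, 2 or 4, where 2.87%, 4.68%, 2.79% and 3.62% were. Genes lower without overlap numbered 12 without control 3 or without null-labelled 3 (15.1% and 14.4% of all tested genes).

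**Figure D2:**
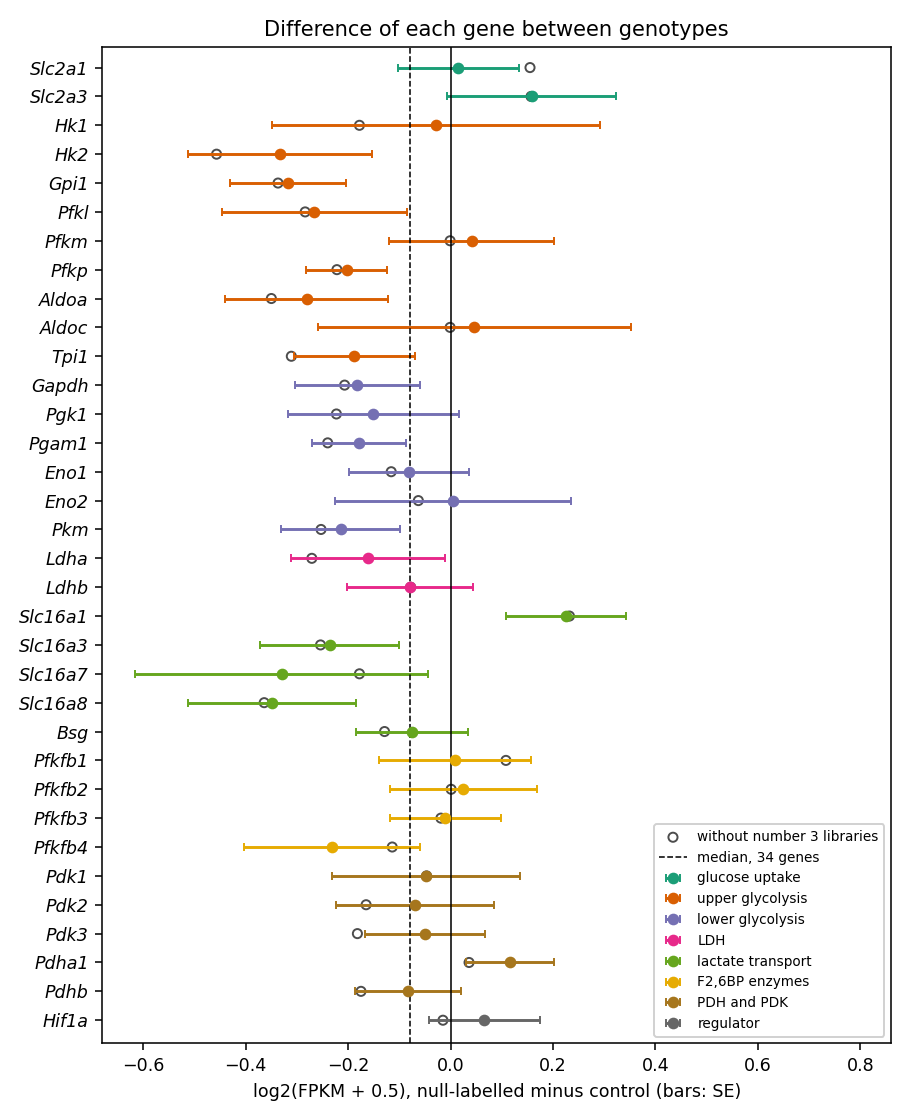
Difference of each gene between null-labelled and control retinas on the log2(FPKM + 0.5) scale (filled circles, bars are SE, n = 3 each), coloured by role. Most circles lie left of 0, the dashed line marks the median of −0.08, and the open circles, without both libraries numbered 3, lie further left for most genes of upper and lower glycolysis.

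Markers of the retina's cell types are set beside these differences, with 0 genes called in any marker list. Rod markers summed to 1887 to 2822 FPKM in null-labelled libraries and 1732 to 3595 FPKM in controls, with all 9 means lower in null-labelled retinas, and without both libraries numbered 3 all 9 were lower at an unadjusted limma p under 0.05. Bipolar markers summed to 535.5 to 612 FPKM in null-labelled libraries, against 619 to 675 FPKM in controls, with 4 of 8 estimates below 0. Otx2, which photoreceptors also express, made up most of that sum, with 375, 335 and 397 FPKM in null-labelled libraries, against 381, 442 and 492 FPKM in controls. Vsx1, a marker of cone bipolar cells, was higher in the null-labelled library of each same-numbered pair, with 18.2, 18.1 and 3.70 FPKM in null-labelled libraries, against 11.2, 5.62 and 0.541 FPKM in controls, and so was Prkca, a rod bipolar marker, with 12.8, 12.4 and 7.71 FPKM in null-labelled libraries, against 10.9, 9.22 and 6.26 FPKM in controls. Müller glia markers summed to 637 to 684 FPKM in null-labelled libraries, against 566 to 703 FPKM in controls. Microglia markers were at 21.9 to 30.2 FPKM in null-labelled libraries and 17.3 to 20.6 FPKM in controls. Their part in the differences of glycolytic genes was not tested.

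Glucose enters through Slc2a1 (GLUT1), the transporter of photoreceptors, glia and the blood-retinal barrier, and Slc2a3 (GLUT3), the transporter of neurons. Slc2a1 had 81.3, 84.7 and 80.3 FPKM in null-labelled libraries 1 to 3, against 74.9, 74.0 and 96.7 FPKM in controls 1 to 3. The null-labelled values lay inside the range of the controls. Slc2a3 had 11.3, 9.94 and 8.59 FPKM in null-labelled libraries, against 11.04, 8.08 and 7.63 FPKM in controls, above its same-numbered control in 3 of 3 pairs and with overlapping groups. Of the summed FPKM of 4 glucose transporters, Slc2a1 held 88.2% ± 0.777 in null-labelled and 88.55% ± 1.99 in control retinas (SD, n = 3 each). Endothelial and pericyte markers, cells that carry GLUT1, summed to 68.5 to 87.7 FPKM in null-labelled libraries and 56.2 to 71.7 FPKM in controls, with 1 of 8 means lower in null-labelled retinas, and their part in the Slc2a1 level was not tested.

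Upper glycolysis had 7 of 9 estimates below 0, with a median log2 difference of −0.20 (9 of 9 and −0.28 without both libraries numbered 3). Hexokinase, which traps glucose as glucose 6-phosphate, came mainly from Hk1: 59.0, 55.0 and 36.1 FPKM in null-labelled libraries 1 to 3, against 63.6, 65.4 and 29.9 FPKM in controls 1 to 3. Number 3 was the lowest in both groups, so that the groups overlapped, and the log2 difference was −0.03 ± 0.320 (SE, n = 3 each). Hk2, the hexokinase linked to the aerobic glycolysis of adult photoreceptors, was low at this age, with 2.81, 2.53 and 3.94 FPKM in null-labelled libraries, against 3.39, 4.36 and 4.20 FPKM in controls. It was below its same-numbered control in 3 of 3 pairs, and its groups overlapped.

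Hkdc1, a further hexokinase gene outside the set (chr10:62383137-62422491, minus strand, GRCm38), lies beside Hk1 and was second to it in every library except control 3, where it was first. Its share of hexokinase FPKM was 28.0%, 32.8% and 37.8% in null-labelled libraries 1 to 3 and 26.8%, 26.4% and 48.8% in controls 1 to 3. Hk1 held 65.9%, 62.0% and 52.7% in null-labelled libraries and 66.8%, 66.45% and 41.55% in controls. In number 3 of both groups the Hk1 share was lower and the Hkdc1 share higher than in numbers 1 and 2. Hk2 held 4.26% on average over the 6 libraries.

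Gpi1, glucose 6-phosphate isomerase (chr7:34201330-34230336, minus strand, GRCm38), had the lowest p of the set. Its level was 145, 158 and 133 FPKM in null-labelled libraries 1 to 3, against 199, 184 and 161 FPKM in controls 1 to 3. All null-labelled values lay below all control values, and within each group number 3 was the lowest. The means were 145 ± 12.4 FPKM in null-labelled and 181.5 ± 19.0 FPKM in control retinas (SD, n = 3 each), a log2 difference of −0.32 ± 0.114 (SE) with an unadjusted p of 0.0251 and a BH-adjusted p of 0.689 (limma). Gm26762 overlaps it on the opposite strand.

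Phosphofructokinase, the committed step, was made mainly from Pfkp, the platelet-type subunit (chr13:6579768-6648777, minus strand, GRCm38). Pfkp had 79.5, 81.7 and 86.4 FPKM in null-labelled libraries 1 to 3, against 95.7, 92.5 and 96.9 FPKM in controls 1 to 3, with no overlap. The log2 difference was −0.20 ± 0.0790 (SE, n = 3 each), with an unadjusted p of 0.0351 and a BH-adjusted p of 0.701 (limma). Pitrm1 overlaps it on the opposite strand. Pfkl, the liver-type subunit, had 45.1, 48.0 and 34.1 FPKM in null-labelled libraries, against 55.7, 58.0 and 40.0 FPKM in controls, lower in 3 of 3 pairs with overlapping groups. Pfkm, the muscle-type subunit, had 24.6, 24.0 and 19.1 FPKM in null-labelled libraries, against 25.1, 23.5 and 17.4 FPKM in controls, and these values interleaved. The summed FPKM of the 3 subunit genes was 149, 154 and 139.5 in null-labelled libraries 1 to 3, against 176.5, 174 and 154 in controls 1 to 3.

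Aldolase came from Aldoa, with 427, 479 and 384 FPKM in null-labelled libraries 1 to 3, against 572, 581 and 424 FPKM in controls 1 to 3. The groups overlapped through number 3, and the log2 difference of −0.28 ± 0.159 (SE, n = 3 each) had a BH-adjusted p of 0.759 (limma). Without both libraries numbered 3 it was −0.35, with an unadjusted p of 0.00546 and a BH-adjusted p of 0.281 (limma). Aldoc, the aldolase of brain and of glial cells, had 31.0, 35.9 and 19.3 FPKM in null-labelled libraries, against 35.0, 31.8 and 17.45 FPKM in controls. Its number 3 values were the lowest of each group and the groups overlapped.

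Triosephosphate isomerase, Tpi1, closes the preparatory steps. Its level was 209, 235 and 273 FPKM in null-labelled libraries 1 to 3, against 269, 281 and 262 FPKM in controls 1 to 3. Null-labelled 1 and 2 lay below every control and null-labelled 3 between them.

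Lower glycolysis had 5 of 6 estimates below 0, with a median log2 difference of −0.17 (6 of 6 and −0.21 without both libraries numbered 3). Of its 6 genes, 3 were lower in null-labelled retinas without overlap, where 5.53% of all tested genes were. Among the 590 tested genes with a mean of at least 100 FPKM, 50 were. Gapdh, glyceraldehyde 3-phosphate dehydrogenase (chr6:125161715-125166467, minus strand, GRCm38), had 1076, 1152 and 1144 FPKM in null-labelled libraries 1 to 3, against 1277, 1293 and 1254 FPKM in controls 1 to 3. The lowest control was above the highest null-labelled value, and the log2 difference of −0.18 ± 0.122 (SE, n = 3 each) did not pass (limma, BH-adjusted p = 0.787). Iffo1 overlaps Gapdh on the opposite strand. Since Gapdh is often used as a reference transcript, its ratio of means, 0.882, is given here as a measured value.

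Pgk1, phosphoglycerate kinase and the first ATP-making step, had 176, 183 and 252 FPKM in null-labelled libraries 1 to 3, against 193, 227 and 253 FPKM in controls 1 to 3, with number 3 highest in both groups. Pgam1, phosphoglycerate mutase (chr19:41911923-41918660, plus strand, GRCm38), had 209, 223 and 233 FPKM in null-labelled libraries, against 249, 261 and 243 FPKM in controls. Its groups did not overlap, its log2 difference was −0.18 ± 0.0917 (SE, n = 3 each), its BH-adjusted p was 0.749 (limma), and no annotated gene overlaps it.

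Enolase came from Eno1, with 505, 543 and 606 FPKM in null-labelled libraries 1 to 3, against 555, 580.0 and 610.2 FPKM in controls 1 to 3. Eno2, the enolase of neurons, had 78.3, 84.1 and 56.8 FPKM in null-labelled libraries, against 89.9, 80.0 and 51.5 FPKM in controls. The groups of both genes overlapped, and number 3 was highest for Eno1 and lowest for Eno2 in both groups.

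Pkm, pyruvate kinase (chr9:59656368-59679375, plus strand, GRCm38), had 599.5, 622 and 684 FPKM in null-labelled libraries 1 to 3, against 688, 769.5 and 753 FPKM in controls 1 to 3. The highest null-labelled value was just under the lowest control. The means were 635 ± 43.6 FPKM in null-labelled and 737 ± 43.3 FPKM in control retinas (SD, n = 3 each), with a log2 difference of −0.21 ± 0.117 (SE) and a BH-adjusted p of 0.749 (limma). The row holds the whole gene, so its alternative products, PKM1 and PKM2, are not told apart, and Gm49759 overlaps it on the same strand.

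**Figure D3:**
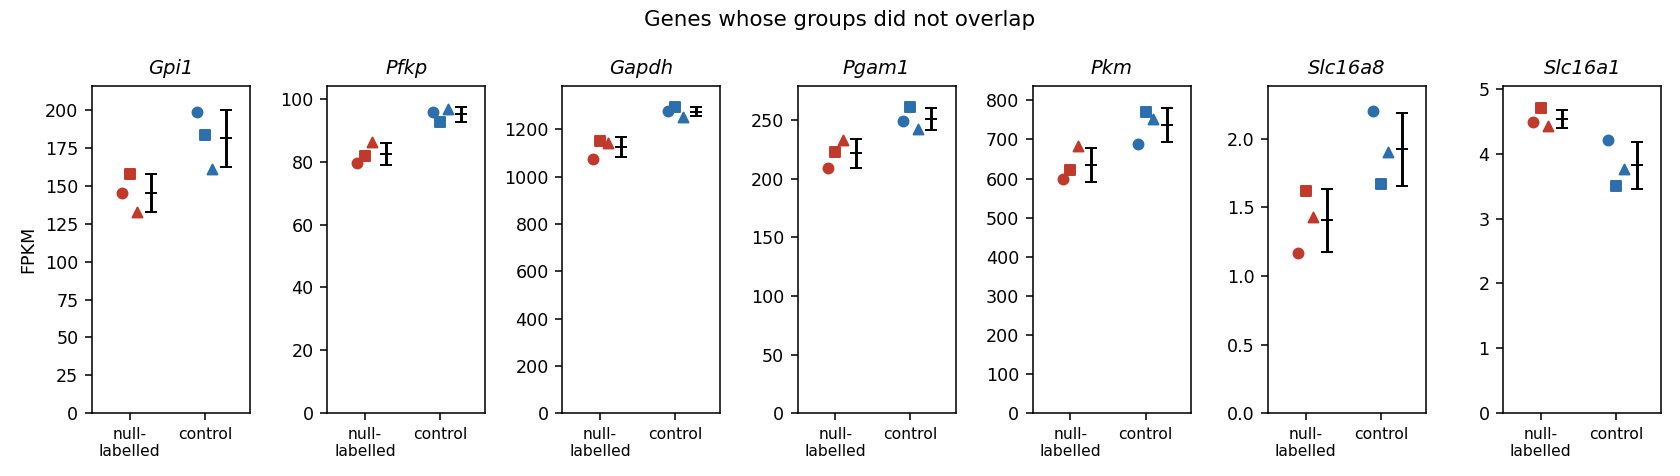
FPKM of the 7 genes whose 3 null-labelled and 3 control values did not overlap, each axis from 0, with the mean and SD (n = 3 each) beside the points. The first 6 panels show the null-labelled points below the controls by less than 1.5-fold, and in the last, Slc16a1, they lie above.

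Lactate dehydrogenase came from Ldha, the subunit that favours making lactate. Ldha had 918, 925 and 927 FPKM in null-labelled libraries 1 to 3, against 1011, 1224 and 889 FPKM in controls 1 to 3. The null-labelled values lay close together inside the wider range of the controls, with means of 923 ± 4.92 FPKM in null-labelled and 1041 ± 170 FPKM in control retinas (SD, n = 3 each). The log2 difference of −0.16 ± 0.150 (SE) did not pass (limma, BH-adjusted p = 0.839). Ldhb, the subunit that favours using lactate, had 77.8, 79.0 and 95.2 FPKM in null-labelled libraries, against 80.35, 85.2 and 101 FPKM in controls, lower in 3 of 3 pairs with overlapping groups. Ldha held 91.7% ± 0.852 of lactate dehydrogenase FPKM in null-labelled and 92.0% ± 1.92 in control retinas (SD, n = 3 each; two-sided exact permutation p = 0.8).

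Many glycolytic genes are known targets of hypoxia-inducible factor, whose binding site has the core ACGTG or GCGTG. The 250 bases before a RefSeq start are shown for both lactate dehydrogenase genes and for Eno1 and Eno2, to set the abundant copy of a step beside the scarcer one. Bases are in lower case with either core, on either strand, in capitals (ACGTG and GCGTG read as CACGT and CACGC on the other strand), 5′ to 3′ on the strand of the gene, in GRCm38.p6.
Ldha, chr7:46845554-46845803, plus strand: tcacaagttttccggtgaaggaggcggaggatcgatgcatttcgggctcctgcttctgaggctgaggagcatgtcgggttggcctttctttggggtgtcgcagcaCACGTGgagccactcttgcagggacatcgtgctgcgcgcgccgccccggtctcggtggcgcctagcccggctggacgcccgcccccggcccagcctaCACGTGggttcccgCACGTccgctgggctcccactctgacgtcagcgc
Ldhb, chr6:142507958-142508207, minus strand: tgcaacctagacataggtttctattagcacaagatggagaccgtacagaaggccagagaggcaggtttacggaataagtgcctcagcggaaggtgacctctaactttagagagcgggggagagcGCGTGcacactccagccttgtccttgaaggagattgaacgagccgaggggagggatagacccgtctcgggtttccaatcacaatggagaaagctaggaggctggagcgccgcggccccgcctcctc
Eno1, chr4:150236458-150236707, plus strand: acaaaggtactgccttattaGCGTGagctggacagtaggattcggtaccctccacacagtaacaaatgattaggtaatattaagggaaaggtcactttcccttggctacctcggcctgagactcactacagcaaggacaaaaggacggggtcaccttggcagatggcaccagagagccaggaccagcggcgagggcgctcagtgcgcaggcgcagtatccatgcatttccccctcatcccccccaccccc
Eno2, chr6:124769674-124769923, minus strand: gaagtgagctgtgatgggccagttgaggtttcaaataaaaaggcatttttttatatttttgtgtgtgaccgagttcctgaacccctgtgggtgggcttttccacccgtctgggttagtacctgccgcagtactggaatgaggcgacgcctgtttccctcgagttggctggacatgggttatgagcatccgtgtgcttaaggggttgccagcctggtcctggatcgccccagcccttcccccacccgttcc

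The Ldha sequence held 5 matches to ACGTG, since each CACGTG counts once on each strand, the Ldhb and Eno1 sequences held 1 match to GCGTG each, and the Eno2 sequence held 0 matches. Ldha has 2 windows in the RefSeq table and Eno1 has 3, of which the first along the gene is shown. The counts differ between windows of a gene. In its 250 bases the other Ldha window held 0 matches to ACGTG and 1 to GCGTG. The other Eno1 windows, which overlap each other, each held 0 matches to ACGTG and 2 to GCGTG. In windows of 300 bases, 250 before and 50 after each start, 31 of the 34 genes had 50 windows, and either core was in 37 of them (74.0%), against 43.8% of all 32851 windows. The ACGTG core was in 46.0% of the windows of the set and 19.6% of all windows, and the GCGTG core was in 52.0% and 32.4%. Some windows of the same gene overlap, so a match can be counted more than once. All windows were not matched to the set in level or base content, and no enrichment was tested. The steps shown do not stand for the others. Aldoa and Slc16a3, the abundant copies, had at most 1 and 2 matches in a window, against 3 and 5 for the scarcer Aldoc and Slc16a1. Hk1 and Pfkp, also abundant copies, had 5 and 4, against 2 for Hk2 and 1 for Pfkl. Gpi1 and Tpi1 had 0. These are matches of letters, given as a description.

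Lactate export and import had 4 of 5 estimates below 0, with a median log2 difference of −0.24 (4 of 5 and −0.18 without both libraries numbered 3). Slc16a3 (MCT4), an exporter of strongly glycolytic cells, was the most abundant transporter, with 19.9, 19.0 and 24.6 FPKM in null-labelled libraries 1 to 3, against 21.8, 24.8 and 28.3 FPKM in controls 1 to 3. It was lower in 3 of 3 pairs, with overlapping groups and a log2 difference of −0.24 ± 0.136 (SE, n = 3 each). Slc16a7 (MCT2), a high-affinity importer of neurons, had 1.78, 1.89 and 2.59 FPKM in null-labelled libraries, against 2.71, 1.68 and 4.29 FPKM in controls. Bsg, the partner that brings several of these transporters to the membrane, had 209, 230.1 and 253 FPKM in null-labelled libraries, against 256, 224 and 248 FPKM in controls, and its groups overlapped.

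Slc16a1 (MCT1), found on photoreceptors, glia and vessels, was the only gene of the set whose null-labelled values all lay above the controls (chr3:104638668-104658462, plus strand, GRCm38). It had 4.49, 4.70 and 4.43 FPKM in null-labelled libraries 1 to 3, against 4.20, 3.49 and 3.76 FPKM in controls 1 to 3. The log2 difference was 0.23 ± 0.117 (SE, n = 3 each), which did not pass (limma, BH-adjusted p = 0.749). Endothelial and pericyte markers had a higher but overlapping range in null-labelled libraries, as given above, and their part in the Slc16a1 level was not tested. Gm43581 and Gm43585 overlap the gene on its strand.

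Slc16a8 (MCT3), the transporter of the pigment epithelium, had 1.16, 1.62 and 1.43 FPKM in null-labelled libraries 1 to 3, against 2.20, 1.67 and 1.91 FPKM in controls 1 to 3 (chr15:79251014-79254761, minus strand, GRCm38). The groups did not overlap, with null-labelled 2 just under control 2, and the log2 difference of −0.35 ± 0.164 (SE, n = 3 each) had a BH-adjusted p of 0.731 (limma). Pigment epithelium markers summed to 15.8 to 37.3 FPKM in null-labelled libraries and 15.9 to 34.5 FPKM in controls. Of the 11 markers, 7 had a lower mean in null-labelled retinas, and Tyrp1 and Mitf were among those with a higher one. Rpe65, the enzyme that defines these cells, was at or under 0.107 FPKM in every library. The part of that tissue in the Slc16a8 level was not tested.

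The use of copies at each step was compared as shares of the summed FPKM of the step, which a single scaling factor per library does not change. Over the 6 libraries Pfkp held 56.4% of phosphofructokinase, Pfkl 29.5% and Pfkm 14.1%, Aldoa held 94.2% of aldolase and Aldoc 5.56%, and Eno1 held 85.7% of enolase and Eno2 11.2%. Among 4 monocarboxylate transporters Slc16a3 held 73.3%, Slc16a1 13.6%, Slc16a7 7.77% and Slc16a8 5.32%. Pgam1 held 99.5% of its step, while Pgk2 and Gapdhs, the testis copies, were listed at 0 in all 6 libraries.

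Between genotypes no share passed its test. Of 41 shares over 13 steps, tested by two-sided exact permutation over libraries, 0 passed after BH adjustment (lowest BH-adjusted permutation p = 1), and 3 against 3 cannot go below an exact p of 0.1. The 1 share at that smallest p was that of Eno3, the muscle enolase and no member of the set, with 2.85% ± 0.285 in null-labelled and 3.51% ± 0.434 in control retinas (SD, n = 3 each). The widest gap was that of Slc16a1, with 15.7% ± 2.02 in null-labelled and 11.5% ± 1.92 in control retinas (SD, n = 3 each; exact permutation p = 0.2). Within same-numbered pairs, 3 of the 28 shares of at least 5% were higher in null-labelled libraries in 3 of 3 pairs (Pfkm, Aldoc and Slc16a1) and 3 were lower (Pfkl, Pfkp and Aldoa). Since the shares of a step add up to the whole, a gain of 1 copy lowers others, and these are not separate results. The gain of Pfkm was 2.25, 2.08 and 2.37 percentage points in pairs 1 to 3, while Pfkp differed by only −0.01 in pair 2. An exact sign-flip permutation over 3 pairs cannot go below p = 0.25, and this paired view was added after the data were seen.

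**Figure D4:**
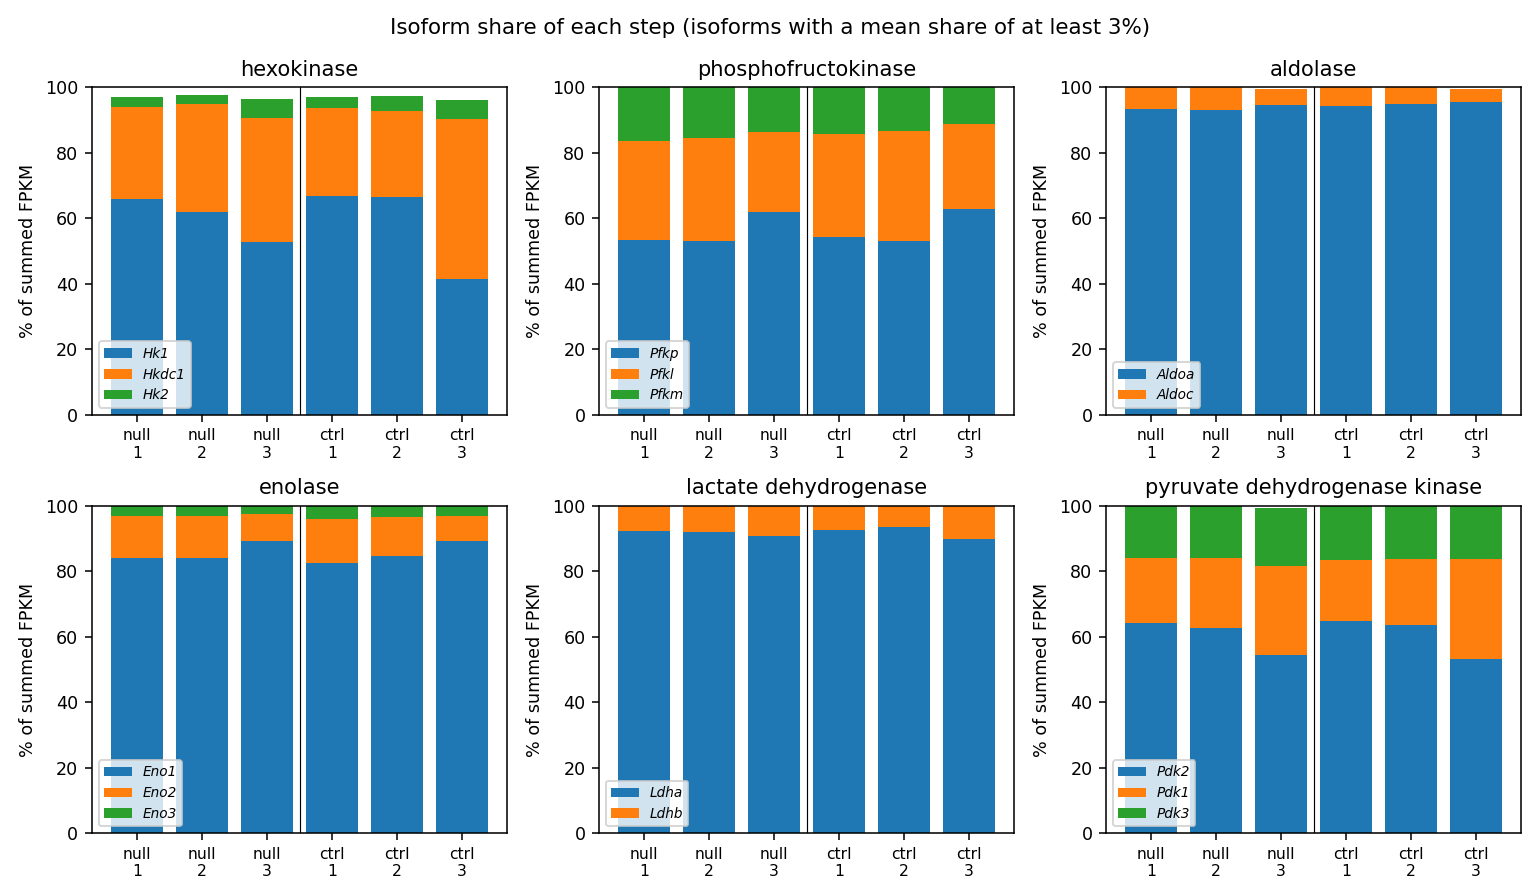
Share of each gene in the summed FPKM of 6 steps (% of the step, copies with a mean share of at least 3%), with null-labelled libraries left of the line and controls (ctrl) right of it. In number 3 of both groups Hk1, Eno2 and Pdk2 hold less and Hkdc1, Pfkp, Eno1 and Pdk1 hold more.

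The PFKFB enzymes both make and remove fructose 2,6-bisphosphate, the strongest activator of phosphofructokinase, and 2 of 4 estimates were below 0 with a median log2 difference of −0.001 (2 of 4 and −0.01 without both libraries numbered 3). Pfkfb2 was the most abundant, with 20.6, 24.6 and 19.0 FPKM in null-labelled libraries 1 to 3, against 24.75, 20.5 and 18.1 FPKM in controls 1 to 3. Pfkfb3, the copy with the strongest kinase side, lay between 7.30 and 8.27 FPKM in null-labelled libraries and between 7.05 and 8.22 FPKM in controls. Pfkfb4 had 3.57, 5.27 and 3.44 FPKM in null-labelled libraries, against 5.15, 4.37 and 4.95 FPKM in controls, and Pfkfb1 stayed between 1.85 and 2.41 FPKM in all 6. The groups of all 4 genes overlapped.

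Pyruvate that is not turned into lactate enters the mitochondrion through pyruvate dehydrogenase, which the PDK kinases switch off. Among its 5 genes, 4 estimates were below 0, with a median log2 difference of −0.05 (4 of 5 and −0.17 without both libraries numbered 3). Pdk2, the most abundant kinase, had 38.9, 38.7 and 33.8 FPKM in null-labelled libraries 1 to 3, against 40.4, 47.0 and 31.0 FPKM in controls 1 to 3. Pdk1, a target of hypoxia-inducible factor, had 12.2, 13.1 and 17.0 FPKM in null-labelled libraries, against 11.4, 15.0 and 17.6 FPKM in controls, with number 3 highest in both groups. Pdk3 spanned 9.58 to 11.03 FPKM in null-labelled libraries and 9.44 to 11.9 FPKM in controls. Of the subunits of the enzyme itself, Pdha1 had 33.6, 32.0 and 36.0 FPKM in null-labelled libraries, against 31.5, 32.4 and 29.6 FPKM in controls, and Pdhb had 94.9, 98.8 and 96.2 FPKM in null-labelled libraries, against 107.5, 111 and 89.7 FPKM in controls. All 5 pairs of groups overlapped.

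Hif1a, the oxygen-regulated subunit of hypoxia-inducible factor, is controlled mainly through protein stability, which RNA does not show. Its level was 120.2, 113 and 113 FPKM in null-labelled libraries 1 to 3, against 112, 124 and 96.8 FPKM in controls 1 to 3. These groups overlapped, with a log2 difference of 0.07 ± 0.108 (SE, n = 3 each).

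Libraries numbered 3 differed from numbers 1 and 2 of their group in a few genes of the set. Number 3 was set against the mean of numbers 1 and 2 within each group, as a description with no test. The median over the 34 genes was 0.02 in null-labelled and −0.05 in control retinas on the log2(FPKM + 0.5) scale. The set's share of the summed FPKM was lowest in number 3 of both groups: 1.36%, 1.46% and 1.33% in null-labelled libraries 1 to 3 and 1.54%, 1.59% and 1.37% in controls 1 to 3. In both groups 13 genes were lower (38.2%, against 35.2% of all tested genes) and 11 higher (32.4%, against 35.9%) in number 3. By more than 0.5 in both groups, 0 genes were higher (against 4.33% of all tested genes) and 3 were lower (8.82%, against 2.29%). These were Hk1 (−0.65 in null-labelled, −1.10 in control retinas), Aldoc (−0.77 in null-labelled, −0.92 in control retinas) and Eno2 (−0.51 in null-labelled, −0.71 in control retinas), the hexokinase, aldolase and enolase copies known from neural tissue. The shares moved likewise: Hk1 by −11.3 percentage points in null-labelled and −25.1 in control retinas, Eno2 by −4.66 in null-labelled and −5.00 in control retinas, and Pdk2 by −9.11 in null-labelled and −10.9 in control retinas. Pfkp gained 8.69 percentage points in null-labelled and 9.09 in control retinas, and Pdk1 gained 6.60 in null-labelled and 11.01 in control retinas. Rod markers, cell cycle markers and liver transcripts differed in the same libraries, and their part in these shifts was not tested.

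**Figure D5:**
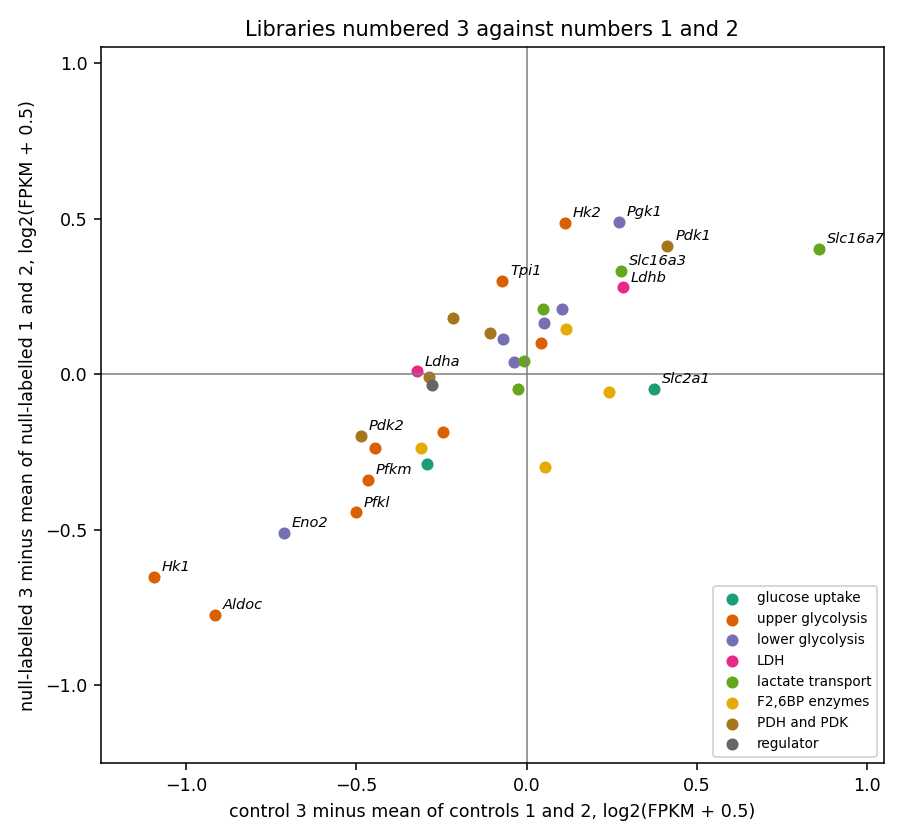
Each point is 1 of the 34 genes: the difference of number 3 from the mean of numbers 1 and 2 on the log2(FPKM + 0.5) scale, in controls (horizontal) and in null-labelled libraries (vertical), coloured by role. Hk1, Aldoc and Eno2 lie at the lower left. The same sign in both groups is seen in 24 of 34 genes (38.2% lower and 32.4% higher in both, against 35.2% and 35.9% of all tested genes).

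Genes around the pathway were read from lists of the same fit, and 0 genes passed after BH adjustment in any of them, with all 6 libraries or without both numbered 3. For these counts, 49.1% of all tested genes had an estimate below 0, 2.72% were lower and 4.09% higher at an unadjusted limma p under 0.05 (54.2%, 7.0% and 4.56% without both libraries numbered 3). Among 9 genes of pyruvate entry into mitochondria, 0 were lower and 2 higher in null-labelled retinas at an unadjusted limma p under 0.05: Pdp2, a phosphatase that switches pyruvate dehydrogenase on, and Pdpr, a regulatory subunit of such phosphatases. Pdp2 had 2.81, 2.99 and 2.21 FPKM in null-labelled libraries 1 to 3, against 1.72, 1.79 and 1.47 FPKM in controls 1 to 3, with no overlap (limma, unadjusted p = 0.00864, BH-adjusted p = 0.661). Pdpr had 8.11, 8.07 and 7.94 FPKM in null-labelled libraries, against 5.95, 6.59 and 4.92 FPKM in controls, also with no overlap (limma, unadjusted p = 0.00851, BH-adjusted p = 0.661). Without both libraries numbered 3 the list again had 0 lower and 2 higher. The opposing kinases, given above, had overlapping groups.

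Of 16 targets of hypoxia-inducible factor outside glycolysis, 11 estimates were below 0 with a median log2 difference of −0.03, and 1 gene was at an unadjusted limma p under 0.05 (13 of 16, −0.09 and 1 without both libraries numbered 3). With all 6 libraries, that gene was Car9, a carbonic anhydrase at the cell surface. It had 0.0882, 0.1515 and 0.186 FPKM in null-labelled libraries 1 to 3, against 0.868, 1.26 and 1.03 FPKM in controls 1 to 3. The groups were far apart relative to their spread, at a level near the minimum mean of 0.5 FPKM for testing, and the log2 difference of −1.27 ± 0.186 (SE, n = 3 each) had an unadjusted p of 1.85e-04 and a BH-adjusted p of 0.327 (limma). At this level the size depends on the pseudocount: it was −2.26 with 0.1 and −0.84 with 1, and the ratio of mean FPKM, null-labelled over control, was 0.135. Vegfa, the vascular growth factor, had 84.1, 121 and 125 FPKM in null-labelled libraries, against 132, 125 and 175 FPKM in controls, with groups that touched without overlap and a BH-adjusted p of 0.737 (limma).

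In the remaining lists few genes reached an unadjusted p under 0.05. In the pentose phosphate pathway 4 of 8 estimates were below 0 and 0 genes were at that level in an unadjusted limma p (6 of 8 and 1 lower without both libraries numbered 3). Pgd, its 6-phosphogluconate dehydrogenase, had 42.1, 43.0 and 41.1 FPKM in null-labelled libraries 1 to 3, against 46.5, 45.8 and 44.75 FPKM in controls 1 to 3, without overlap. In the tricarboxylic acid cycle 11 of 15 estimates were below 0, with a median log2 difference of −0.05 and 0 genes at that level (11 of 15, −0.07 and 0 without both libraries numbered 3). Among 10 genes of the NADH shuttles 1 was at that level: Gpd2, the mitochondrial glycerol 3-phosphate dehydrogenase, with 3.86, 4.44 and 4.53 FPKM in null-labelled libraries, against 2.99, 3.68 and 3.09 FPKM in controls (limma, unadjusted p = 0.0306, BH-adjusted p = 0.695). Without both libraries numbered 3, 2 genes of that list were lower and 0 higher at that level. In gluconeogenesis and glycogen 7 of 13 tested genes were below 0 (10 of 13 without both libraries numbered 3), with 0 at that level in either fit. Among partners and hydroxylases of hypoxia-inducible factor 4 of 9 estimates were below 0 (6 of 9 without both libraries numbered 3), and among other regulators of glycolysis 3 of 8 were in both fits, with 0 genes at that level in either list. Of 22 tested further isoforms of the steps, 9 estimates were below 0, and Eno3 was the 1 gene at that level, with 18.2, 19.35 and 17.1 FPKM in null-labelled libraries, against 26.6, 23.8 and 21.1 FPKM in controls, without overlap (limma, unadjusted p = 0.00996, BH-adjusted p = 0.661).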

How the data were processed

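RNA-seq libraries were made from total RNA of P6 retinas with a TruSeq kit and sequenced from both ends on an Illumina instrument. The deposited table holds FPKM, which the authors made with TopHat2 and Cufflinks on GRCm38 according to the submitters' processing notes. Tool versions, annotation and strand use were not given in the sources used here. In each of 15 pairs of libraries at most 7.83% of genes between 0.001 and 0.2 FPKM shared a ratio (within 0.003, natural log), so whole reads could not be recovered. Therefore no count test or counting interval was possible. FPKM is also a relative measure, in which 1 very abundant gene depresses the rest.

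Genotypes were compared with limma 3.58.1 (R 4.3.3), trend and genotype only, on log2(FPKM + 0.5). Rows averaging 0.5 FPKM or more entered (13175), with BH adjustment and a two-sided threshold of 0.05. For low genes the pseudocount shrinks a fold. Isoform shares were tested by exact permutation. The fit was tested on simulated data. Positions came from GENCODE M21 and promoter windows from RefSeq (GRCm38.p6), which matched 31 of 34 genes.

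The 34 genes, the lists and the tests were chosen with earlier results of these data known. Named were the 34 genes and Lhx4, isoforms with at least 5% of a step, and up to 3 genes of each pathway list with the smallest p. Per-library values were required for the leading copy of each step and for genes at an unadjusted p under 0.05 or without overlap. The liver list and the split at 100 FPKM were added after values were seen. Some values are not reported here. The alternatives tried were a pseudocount of 0.1 or 1, a minimum mean of 2 FPKM or none, scaling of libraries to a common total or a common 75th percentile, a fit without trend, quantile normalization, limma's array weights, a replicate block, each library left out, and both libraries numbered 3 left out.

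The labels number the animals 1 to 3 in each group. After removal of group means, same-numbered libraries correlated at 0.39, 0.26 and 0.68 over tested genes for numbers 1, 2 and 3. All were over 0.1, the rule used for pairing. Different numbers also met that rule: null-labelled 1 with control 2 (0.27) and null-labelled 2 with control 1 (0.38). With number 3 apart in both groups, the rule cannot tell number 1 from number 2. The pairs and the block therefore rest on the numbers in the labels. What the numbers stand for is not given.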

Additional observations from a re-analysis of the deposited data

How the results depend on the processing

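None of the 34 genes passed BH adjustment (limma) under any alternative run, with 33 tested at a minimum mean of 2 FPKM. Counts moved more: the genes passing in the whole table were 2 in the reported fit, 12 with the replicate block, 11 with both libraries numbered 3 left out, and 0 to 5 with 1 library left out (0 without null-labelled 2, 5 without control 3). Genes of the set lower at an unadjusted limma p under 0.05 are given with the share of all tested genes in brackets. They were 2 in the reported fit (2.72%), 0 after rescaling to the same total (1.36%) and 1 after quantile normalization (2.74%). They were 8 with array weights (6.51%), 6 with the replicate block (5.21%), 11 with both libraries numbered 3 left out (7.0%), and 0 to 4 with 1 library left out (1.14% to 4.68%). The block, which pairs libraries by number, moved no other count by over 1.5 times and changed no other call. Genes lower without overlap, again with the share of all tested genes, were 6 in the reported fit (5.53%) and 2 after rescaling to the same total (3.03%) or quantile normalization (5.81%). They were 19 with both libraries numbered 3 left out (25.0%) and 6 to 12 with 1 left out (12 without control 3, 15.1%, or without null-labelled 3, 14.4%). The median log2 difference was −0.08 in the reported fit, −0.15 with array weights, −0.17 with both libraries numbered 3 left out, and −0.161 to −0.062 with 1 left out. The median difference of number 3 from numbers 1 and 2, over genes and both groups, was 0.007 as reported, −0.10 after rescaling to the same total and −0.06 after quantile normalization. The cause of these changes was not tested, except that groups of 2 separate more often than groups of 3 by construction (lower in null-labelled retinas without overlap: 25.0% of all tested genes without number 3, against 5.53%). The sign of 17 log2 differences and 8 shares with small values turned, none of the log2 differences past its threshold. Shares could not reach the threshold in any setting, since 3 against 3 cannot go below an exact permutation p of 0.1. With 1 library left out, the log2 difference spanned −0.053 to 0.14 for Slc2a1, −0.40 to 0.19 for Hk1, −0.11 to 0.15 for Pfkm, −0.26 to 0.30 for Aldoc, −0.23 to 0.17 for Eno2, −0.17 to 0.015 for Ldhb, −0.065 to 0.089 for Pfkfb1, −0.078 to 0.144 for Pfkfb2, −0.075 to 0.029 for Pfkfb3, −0.21 to 0.09 for Pdk1, −0.231 to 0.067 for Pdk2, −0.122 to 0.038 for Pdk3, −0.027 to 0.15 for Hif1a and −0.012 to 0.37 for Ppargc1a. Likewise the difference of shares, in percentage points, spanned −1.385 to 0.448 for Ldha, −1.35 to 0.635 for Slc2a1, −1.65 to 1.95 for Eno1, −3.85 to 0.0708 for Slc16a3, −3.89 to 2.79 for Pdk2, −0.690 to 4.18 for Pfkfb2, −6.39 to 6.23 for Hk1 and −3.50 to 2.42 for Pfkp. Rescaling to the same total gave 0.012 for Hk1 and 0.029 for Pfkfb3, and to the same 75th percentile 0.011 for Pfkfb3. Quantile normalization gave log2 differences of 0.020 for Hk1, 0.071 for Eno1, 0.016 for Bsg and −0.060 for Pfkfb1, and share differences of 0.0946 for Ldha, 0.220 for Slc2a1 and 0.554 for Pdk2. Array weights gave −0.031 for Eno2. With both libraries numbered 3 left out, log2 differences were −0.0011 for Pfkm, −0.0012 for Aldoc, −0.063 for Eno2, −0.015 for Hif1a and −0.0044 for Epas1, and share differences were 0.476 for Slc2a1 and −2.64 for Hk1. The other 1057 values of single genes and shares kept their direction, and those of single genes also kept their side of the threshold.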
